A study of Mus musculus with 4 samples.

Results

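The SLC25 family of mitochondrial solute carriers was examined in group 2 innate lymphoid cells (ILC2s) of the mouse colon treated with FK866. The family members were the protein-coding genes whose mouse symbol begins with Slc25a and a number, leaving out Slc25a1, Slc25a10, Slc25a11, Slc25a12, Slc25a13, Slc25a20 and Slc25a51. This rule gave 40 genes of the 55487 in the count table, and it uses no measured value. FK866 libraries (n = 2) came from ILC2s that had received FK866 for 16 h. This compound blocks NAMPT, the enzyme that limits the recycling of nicotinamide to NAD+. The other 2 libraries are labelled Control. All cells had been sorted from the gut and kept in culture with 4 cytokines, IL-33, IL-25, IL-7 and IL-2. The sources used here do not give the strain, sex and age of the mice, their number, the FK866 dose or the vehicle. Nothing says that the 2 replicates of a group are separate cultures or animals, so the p-values reflect the spread between libraries alone, and that spread may be technical.

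SLC25 carriers are small membrane proteins built from 3 repeats of a pair of membrane-spanning helices, and most sit in the inner mitochondrial membrane. They move metabolites, nucleotides, cofactors and ions that the membrane would otherwise hold back, usually by exchanging a solute on one side for another on the other side. Through them ATP leaves the matrix, and phosphate, iron, glycine, glutathione and the building blocks of mitochondrial DNA and RNA enter it. A few members sit elsewhere, such as Slc25a17 in peroxisomes and Slc25a46 in the outer mitochondrial membrane.

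Library totals ranged from 27617750 to 37841233 counts. Genes with at least 10 counts numbered 17152 in FK866 replicate 1 and 22461 in FK866 replicate 2, which stands apart, against 17563 and 18667 in the Control libraries. All 14 ILC2 markers examined were measured in the libraries, with a summed level of 5215 to 6108 CPM (counts per 1000000 of the TMM-scaled library total) in FK866 and 6874 to 7061 CPM in Control. Of these, 1 rose (Rora) and 5 fell (Id2, Il13, Nmur1, Arg1 and Icos). Summed markers of T cells (7 genes, mostly Cd3g at 14.7 to 14.8 CPM in FK866 and 14.4 to 15.4 CPM in Control) stood at 21.1 to 21.2 CPM in FK866 and 20.1 to 20.2 CPM in Control. Those of B cells (5 genes, mostly Cd79b) stood at 19.3 to 25.9 CPM in FK866 and 31.6 to 34.9 CPM in Control. Those of myeloid cells (6 genes, of which Cd68 rose) stood at 11.2 to 13.9 CPM in FK866 and 4.51 to 5.12 CPM in Control. Those of epithelium (6 genes, mostly Epcam, Krt8 at 0 in every library) stood at 27.4 to 40.1 CPM in FK866 and 42.4 to 55.4 CPM in Control. Those of NK cells and ILC1s (6 genes) summed to 7.79 to 12.1 CPM in FK866 and 11.1 to 12.4 CPM in Control, and those of mast cells (5 genes) to 0.482 to 0.882 CPM in FK866 and 0.11 to 1.38 CPM in Control. Those of ILC3s (4 genes, mostly Il22, of which Il23r rose) summed to 80.7 to 223.8 CPM in FK866 and 151.5 to 269.1 CPM in Control, and those of stroma and endothelium (6 genes, mostly Pecam1) to 191.8 to 228.2 CPM in FK866 and 144.5 to 185.3 CPM in Control. In the list of stroma and endothelium, Pecam1 averaged 183.6 CPM over the 4 libraries and the next highest gene, Dcn, 1.28 CPM. The part of these marker shifts in the carrier results was not tested. In bulk RNA, fewer cells of a type and less RNA per cell cannot be told apart.

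Of the 40 carriers, 34 had enough counts to be tested. FK866 changed 7 of them, 20.6% of those tested. The 4 that rose were Slc25a38, Slc25a28, Slc25a30 and Slc25a36. The 3 that fell were Slc25a53, Slc25a16 and Slc25a15. Differences were tested with the quasi-likelihood test of edgeR, with Benjamini-Hochberg adjustment over all 19194 genes tested and a call at an adjusted p under 0.05. In the whole table, 13.2% of tested genes were called, 5.31% higher and 7.89% lower, and among tested protein-coding genes 16.5% were called. Among genes with at least 50 counts in at least 2 libraries, 22.6% of the carriers and 29.2% of all genes were called. The share of carriers called is thus near the background and is not by itself a result about the family.

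The promoters of the carriers whose call held under all 13 alternative settings are shown first, because these are the 5 members that the rest of the account turns on. Each is the RefSeq window of 300 bases from 250 before to 50 after the annotated start (GRCm38.p6), written 5′ to 3′ on the strand of the gene. Capitals mark 3 motifs on either strand: the GC box, spelled GGGCGG, the CCAAT box, spelled as in its name, and the E-box, spelled CACGTG. Slc25a38 lies at chr9:120110132-120110431 (plus strand), Slc25a28 at chr19:43674832-43675131 (minus), Slc25a30 at chr14:75786988-75787287 (minus), Slc25a36 at chr9:97110992-97111291 (minus) and Slc25a53, the upstream of its 2 windows, at chrX:137038253-137038552 (minus).
Slc25a38: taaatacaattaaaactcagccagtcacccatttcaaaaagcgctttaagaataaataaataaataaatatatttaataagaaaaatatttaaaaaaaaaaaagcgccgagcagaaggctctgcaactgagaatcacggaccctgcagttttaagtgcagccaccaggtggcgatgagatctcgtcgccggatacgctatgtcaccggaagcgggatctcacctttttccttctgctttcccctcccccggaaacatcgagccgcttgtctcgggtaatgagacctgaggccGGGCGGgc
Slc25a28: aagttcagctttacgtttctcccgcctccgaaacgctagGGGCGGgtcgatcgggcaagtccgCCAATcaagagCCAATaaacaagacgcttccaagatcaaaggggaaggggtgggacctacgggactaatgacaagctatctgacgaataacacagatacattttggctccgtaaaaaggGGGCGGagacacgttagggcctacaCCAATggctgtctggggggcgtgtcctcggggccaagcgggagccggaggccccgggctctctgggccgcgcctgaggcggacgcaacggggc
Slc25a30: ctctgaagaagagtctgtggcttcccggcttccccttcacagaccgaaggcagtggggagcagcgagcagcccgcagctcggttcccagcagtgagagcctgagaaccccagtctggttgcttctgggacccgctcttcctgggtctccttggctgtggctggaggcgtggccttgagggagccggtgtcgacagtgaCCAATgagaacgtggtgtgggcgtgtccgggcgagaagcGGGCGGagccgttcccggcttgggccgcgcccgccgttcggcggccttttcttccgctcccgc
Slc25a36: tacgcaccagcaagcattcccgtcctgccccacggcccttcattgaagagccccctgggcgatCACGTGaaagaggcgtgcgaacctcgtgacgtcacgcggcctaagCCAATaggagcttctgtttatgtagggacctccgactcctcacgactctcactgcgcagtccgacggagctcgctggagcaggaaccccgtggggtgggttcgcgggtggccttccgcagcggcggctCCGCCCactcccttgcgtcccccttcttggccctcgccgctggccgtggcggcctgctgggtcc
Slc25a53: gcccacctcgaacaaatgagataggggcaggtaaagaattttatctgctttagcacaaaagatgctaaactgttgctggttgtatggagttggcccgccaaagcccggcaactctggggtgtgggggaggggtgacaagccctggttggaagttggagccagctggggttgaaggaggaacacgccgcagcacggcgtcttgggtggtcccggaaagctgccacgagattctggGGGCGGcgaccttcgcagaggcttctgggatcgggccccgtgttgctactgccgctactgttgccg
All 5 windows hold at least 1 GC box. That motif is common: it was in 35.7% of all 32841 mouse promoter windows, in 56.2% of the 15389 windows of tested genes and in 85.0% of the 40 windows that 30 of the carriers had. The CCAAT box was found for 3 of the 4 carriers that rose, 1 of the 3 that fell and 15 of the 30 carriers with a window. By gene, 5171 of 12148 tested genes with a window had it. By window, it was in 45.0% of those of carriers, 37.4% of all and 37.7% of those of tested genes. The window of Slc25a28 holds 3 copies. Of the 5 windows shown, only that of Slc25a36 holds an E-box, a motif in 7.15% of all windows and 9.13% of those of tested genes, and found for 5 of the 30 carriers. The core TGATGNAA bound by ATF4 with its partners, and the FOXO core GTAAACA, were in 0 of the 40 carrier windows, against 3.97% and 3.65% of all windows and 2.61% of the windows of tested genes for each. A match is a description of letters in the window and not a site, and no match says only that these letters are not in it.

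**Figure D1:**
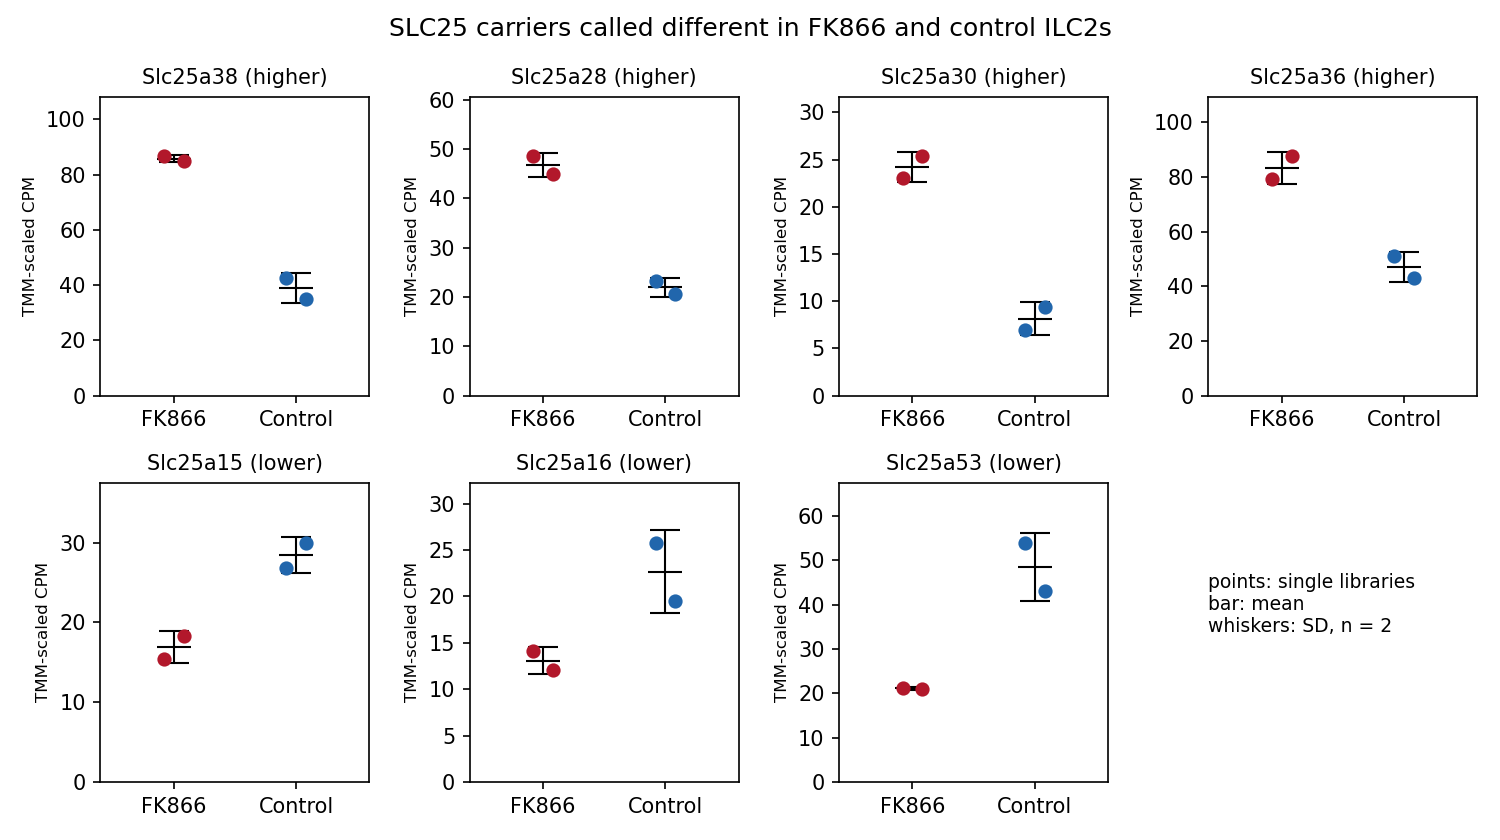
Expression of the 7 called carriers in each library, in TMM-scaled CPM (y axis from 0), with FK866 in red and Control in blue; points are single libraries, the bar is the mean and whiskers are the SD (n = 2). In all 7 the groups do not overlap, which genes picked by a call are likely to show. Among all tested genes, both FK866 libraries lay above both Control libraries in 28.4% and below in 29.3%. Slc25a30 shows the widest relative gap, with means of 24.2 CPM in FK866 and 8.15 CPM in Control.

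The adenine nucleotide carriers, which exchange cytosolic ADP for matrix ATP, include the most abundant member of the family per length. Slc25a5, which encodes the isoform ANT2 of proliferating cells, had 1274 and 1337 CPM in FK866 libraries, against 1562 and 1536 CPM in Control libraries. Both FK866 libraries lay below both Control libraries, but the difference was not called (log2 fold change -0.25 ± 0.11, SE; 95% interval -0.50 to 0.00; edgeR adjusted p = 0.181). After removal of the trend of fold changes with transcript length and GC content it was -0.015. Slc25a4, the ANT1 isoform of heart and muscle, had 246.6 and 232.9 CPM in FK866 and 262.4 and 244.0 CPM in Control. Its groups overlapped, and its fold change was -0.08 (95% interval -0.36 to 0.20). The germ-cell isoform Slc25a31 was at the limit of detection, with 0 and 6 counts in FK866 and 0 and 8 counts in Control. Reads of Slc25a5 can be shared with processed pseudogenes, of which the annotated Slc25a5-ps held 0.224 CPM in FK866 and 0.496 CPM in Control on average.

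Pyrimidine nucleotides, the building blocks of mitochondrial DNA and RNA, are imported by the related carriers Slc25a33 and Slc25a36. Slc25a36 (ENSMUSG00000032449, mm10 chromosome 9, 97074961 to 97111157, minus strand) had 79.3 and 87.5 CPM in FK866 libraries, against 51.0 and 43.2 CPM in Control libraries. It rose 1.77-fold, with no overlap between the groups (log2 fold change 0.82 ± 0.15, SE; edgeR adjusted p = 0.0115). Slc25a33 had 20.3 and 13.8 CPM in FK866, against 28.5 and 27.1 CPM in Control. Its FK866 libraries lay below both Control libraries, and the difference was not called (log2 fold change -0.71 ± 0.22, SE; edgeR adjusted p = 0.0731). It was called lower by DESeq2, with no filter, without FK866 replicate 1 (-1.10) and without either Control library, and stood at -0.43 without FK866 replicate 2. An antisense gene covers 14.9% of the exon bases of Slc25a33, and these libraries, which do not mark the strand, do not separate the reads of the pair. Per length, the ratio of Slc25a36 to Slc25a33 was 1.41 and 2.29 in FK866 libraries, against 0.645 and 0.576 in Control libraries. Per length, the more abundant member of the pair was thus Slc25a36 in both FK866 libraries and Slc25a33 in both Control libraries. This order rests on the transcript lengths used, 5227 nt for Slc25a36 and 1887 nt for Slc25a33. In CPM, without division by length, Slc25a36 was the higher of the pair in every library.

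The calcium-regulated carriers of ATP-Mg and phosphate, which adjust the adenine nucleotide content of the matrix, did not pass the test. Slc25a25 had 33.97 and 24.9 CPM in FK866 and 27.7 and 18.8 CPM in Control, with overlapping groups (log2 fold change 0.34, edgeR adjusted p = 0.414). Slc25a24 averaged 8.14 ± 0.656 CPM in FK866 and 10.2 ± 0.470 CPM in Control (SD, n = 2 each), and Slc25a23 2.35 ± 0.335 CPM in FK866 and 3.76 ± 0.452 CPM in Control. Per length, Slc25a25 outnumbered Slc25a24 3.84 and 3.16 to 1 in FK866 libraries and 2.55 and 1.85 to 1 in Control libraries. Slc25a41 and Slc25a54, close relatives of these carriers, had at most 4 counts in any library, and Slc25a54 was listed at 0 in both Control libraries.

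Among carriers of phosphate, iron and protons, 2 of 6 rose. Mitoferrin 2, encoded by Slc25a28 (ENSMUSG00000040414, chromosome 19, 43663801 to 43674881, minus strand), brings iron into the matrix for heme and iron-sulfur clusters. It had 48.5 and 45.0 CPM in FK866 libraries, against 23.3 and 20.6 CPM in Control libraries. That is a rise of 2.13-fold without overlap (log2 fold change 1.09 ± 0.17, SE; edgeR adjusted p = 0.00612). Mitoferrin 1 (Slc25a37), the form that developing red cells depend on, had 20.4 and 23.6 CPM in FK866 and 24.2 and 23.7 CPM in Control, with a log2 fold change of -0.12 (95% interval -0.54 to 0.30). Per length, Slc25a28 stood 6.46 and 5.19 times as high as Slc25a37 in FK866 libraries, against 2.62 and 2.36 times in Control libraries.

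Slc25a30 (ENSMUSG00000022003, chromosome 14, 75760117 to 75787037, minus strand), known as kidney mitochondrial carrier protein 1, is a relative of the uncoupling proteins. It had 23.1 and 25.4 CPM in FK866 libraries, against 6.91 and 9.39 CPM in Control libraries. With a rise of 2.98-fold, it had the highest fold change among called carriers (log2 fold change 1.57 ± 0.23, SE; edgeR adjusted p = 0.00506). Its near relative Slc25a14, also known as UCP5, had 4.12 and 4.29 CPM in FK866 and 7.49 and 7.55 CPM in Control. That pair of groups did not overlap, and the log2 fold change of -0.84 ± 0.28 (SE) did not pass (edgeR adjusted p = 0.0853). Per length, the ratio of Slc25a30 to Slc25a14 was 2.82 and 2.97 in FK866 libraries, against 0.464 and 0.626 in Control libraries. That Slc25a30 was the lower in both Control libraries rests on the transcript lengths used, 3588 nt for Slc25a30 and 1805 nt for Slc25a14. In CPM, Slc25a30 was the higher of the pair in Control replicate 2 (9.39 against 7.55) and the lower in Control replicate 1 (6.91 against 7.49). Slc25a27 (UCP4), a brain form, averaged 2.53 ± 0.0417 CPM in FK866 and 2.31 ± 0.895 CPM in Control.

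Slc25a3 imports phosphate for ATP synthesis and also carries copper for cytochrome oxidase. It had 705.5 and 689.2 CPM in FK866, against 602.6 and 640.9 CPM in Control, with no overlap and no call (log2 fold change 0.17, 95% interval -0.10 to 0.43; edgeR adjusted p = 0.404). After removal of that trend it was 0.34, without a call, and it was 0.05 without FK866 replicate 1 and 0.02 without Control replicate 1. As a share of all counts in the 40 carriers, Slc25a3 held 20.3% and 19.9% in FK866 libraries, against 16.0% and 17.7% in Control libraries. Slc25a5 held 36.7% and 38.5% in FK866 libraries, against 41.4% and 42.4% in Control libraries. The groups did not overlap in either share, that of Slc25a3 being higher and that of Slc25a5 lower in FK866.

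**Figure D2:**
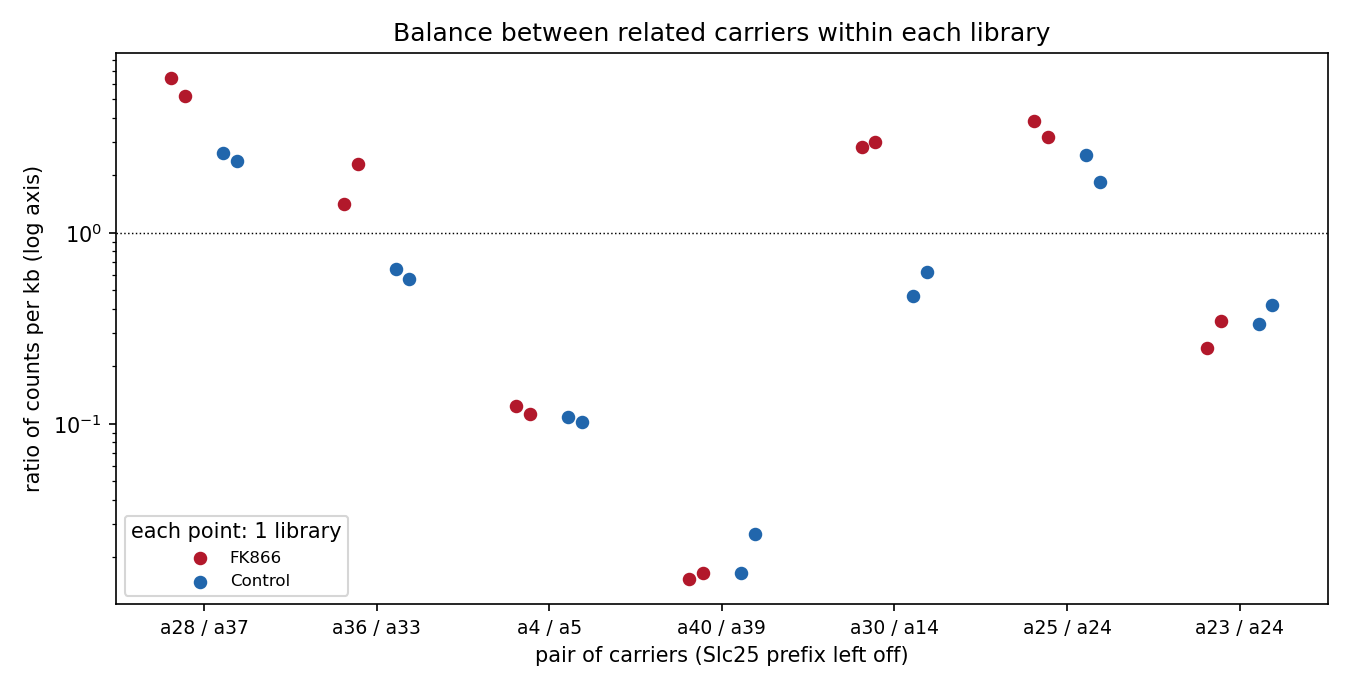
Ratio of counts per kb of transcript between related carriers within each library, on a log axis, with FK866 in red and Control in blue; the dotted line marks equal levels. The ratios of Slc25a36 to Slc25a33 and of Slc25a30 to Slc25a14 are above 1 in both FK866 libraries and under 1 in both Control libraries, and that of Slc25a28 to Slc25a37 is above 1 in all 4.

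These ratios are formed within a library, so that no scaling between libraries enters them. The trend of fold changes with transcript length does not cancel in them and was not removed. Slc25a36 and Slc25a30 have the longer transcript of their pair, and Slc25a28 the shorter. With 2 libraries against 2, an exact two-sided permutation test of such a ratio cannot give a p under 0.333, so the ratios are given as a description. Of the other pairs, Slc25a4 to Slc25a5 was 0.125 and 0.112 in FK866 and 0.108 and 0.102 in Control, and Slc25a40 to Slc25a39 was 0.0154 and 0.0166 in FK866 and 0.0167 and 0.0264 in Control. Slc25a23 to Slc25a24 overlapped between the groups, at 0.251 and 0.344 in FK866 and 0.333 and 0.421 in Control. No ratio is given where 1 partner was nearly undetected (Slc25a2 with Slc25a15, Slc25a18 with Slc25a22).

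Of 8 tested carriers of amino acids and glutathione, 1 rose, 1 fell and 6 were not called. Slc25a38 (ENSMUSG00000032519, chromosome 9, 120110374 to 120124504, plus strand) imports glycine, the substrate with which heme synthesis starts, and its loss in humans causes a sideroblastic anemia. It had 86.6 and 84.8 CPM in FK866 libraries, against 42.7 and 35.0 CPM in Control libraries. The groups did not overlap, and the rise was 2.204-fold (log2 fold change 1.14 ± 0.16, SE; edgeR adjusted p = 0.00402). Slc25a15 (ENSMUSG00000031482, chromosome 8, 22375551 to 22398597, minus strand), which exchanges ornithine and citrulline in the urea cycle, had 15.5 and 18.3 CPM in FK866, against 26.9 and 30 CPM in Control. It fell by 0.75 ± 0.19 on the log2 scale (SE; edgeR adjusted p = 0.0363). That call was lost under scaling by totals alone and when either FK866 library or Control replicate 2 was left out (adjusted p up to 0.0951). Slc25a2, the second ornithine carrier, had at most 14 counts in any library and was not tested.

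Glutathione enters mitochondria through Slc25a39. Its transcript had 176.1 and 185.7 CPM in FK866, against 253.6 and 228.7 CPM in Control, and both FK866 libraries lay below both Control libraries. The log2 fold change of -0.41 ± 0.13 (SE) did not pass (edgeR adjusted p = 0.0681), but was called lower by DESeq2, without either Control library and with library totals taken before the filter. After removal of the trend with length and GC it was -0.19 (adjusted p = 0.33). Its partner in the same transport, Slc25a40, had 4.49 and 5.09 CPM in FK866 and 6.99 and 9.97 CPM in Control. That difference was not called (log2 -0.82, edgeR adjusted p = 0.106); without Control replicate 1 it was (-1.16), and without Control replicate 2 it was -0.54.

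The glutamate carrier Slc25a22 had 75.6 and 57.8 CPM in FK866 and 101.6 and 73.1 CPM in Control. Its groups overlapped (log2 -0.39, edgeR adjusted p = 0.244), and it was called lower without FK866 replicate 1 (-0.69) or Control replicate 2 (-0.61). It stood at -0.19 without FK866 replicate 2 and at -0.23 without Control replicate 1. Slc25a44, which imports branched-chain amino acids, had 31.7 and 41.6 CPM in FK866 and 44.6 and 32.9 CPM in Control, with overlapping groups and a log2 fold change of -0.08 (95% interval -0.56 to 0.40). The second glutamate carrier, Slc25a18, had only 23 and 31 counts in FK866 and 4 and 7 counts in Control. Its fitted log2 fold change of 2.42 ± 0.91 (SE) rests on those few reads and did not pass (edgeR adjusted p = 0.118). Slc25a29, a carrier of basic amino acids, averaged 5.14 ± 0.0884 CPM in FK866 and 5.55 ± 2.39 CPM in Control, and Slc25a21, which carries 2-oxoadipate and related acids, had at most 23 counts and was not tested.

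Among cofactor carriers, 1 of 6 fell. Slc25a16 (ENSMUSG00000071253, chromosome 10, 62920633 to 62946498, plus strand), whose yeast counterpart is needed for coenzyme A in mitochondria, had 14.1 and 12.1 CPM in FK866, against 25.8 and 19.5 CPM in Control. The groups did not overlap, and the log2 fold change of -0.79 ± 0.22 (SE) was just inside the threshold (edgeR adjusted p = 0.0498). The call was lost, with little change of the fold, under RLE scaling (-0.77, adjusted p = 0.0646) and after removal of the trend with length and GC (-0.78, adjusted p = 0.0552). It was also lost without FK866 replicate 2 (-0.66) and without Control replicate 1 (-0.68). Slc25a42, which carries coenzyme A, had 3.89 and 5.76 CPM in FK866 and 8.29 and 9.23 CPM in Control, and was not called (log2 -0.86, edgeR adjusted p = 0.096); without Control replicate 1 it was (-1.03).

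The peroxisomal carrier Slc25a17, which handles coenzyme A, FAD and NAD+, had 77.8 and 62.9 CPM in FK866 and 101 and 88.0 CPM in Control. Its log2 fold change was -0.43 ± 0.16 (SE; edgeR adjusted p = 0.117), and it was called lower without FK866 replicate 1 (-0.68) or Control replicate 2 (-0.52). It stood at -0.26 without FK866 replicate 2 and at -0.25 after removal of the trend with length and GC. The folate carrier Slc25a32 had 38.9 and 42.9 CPM in FK866 and 51.6 and 58.8 CPM in Control. It was not called (log2 -0.43, edgeR adjusted p = 0.109), but was without Control replicate 1 (-0.62) and after removal of the trend with length and GC (-0.62). Slc25a26, which imports S-adenosylmethionine, had 11.7 and 9.73 CPM in FK866 and 9.36 and 10.6 CPM in Control, with overlapping groups.

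Members in the outer membrane or of uncertain substrate included the deepest fall of the family. Slc25a53 (ENSMUSG00000044348, chromosome X, 136981116 to 137038302, minus strand) belongs with the mitochondrial NAD+ carrier Slc25a51 to the small MCART branch, and its own substrate is not named here. It had 21.3 and 20.9 CPM in FK866 libraries, against 54.0 and 43.0 CPM in Control libraries. The level in FK866 was thus 0.435 times that in Control, with no overlap (log2 fold change -1.20 ± 0.18, SE; edgeR adjusted p = 0.00558). Slc25a46, an outer-membrane protein that takes part in mitochondrial fusion and fission, had 88.7 and 87.3 CPM in FK866 and 106.7 and 113.8 CPM in Control. Its log2 fold change of -0.33 ± 0.13 (SE) did not pass (edgeR adjusted p = 0.144), though it was called lower without Control replicate 1 (-0.47) and after removal of the trend with length and GC (-0.42). Slc25a45 had 12.5 and 14.2 CPM in FK866 and 16.0 and 14.1 CPM in Control, with overlapping groups. Slc25a35, Slc25a43, Slc25a47 and Slc25a48 were tested at averages under 5 CPM and not called, and Slc25a34 had at most 4 counts. Without FK866 replicate 2, Slc25a35 was called lower (-2.19), and 31.3% of its exon bases are shared with Rangrf on the other strand.

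**Figure D3:**
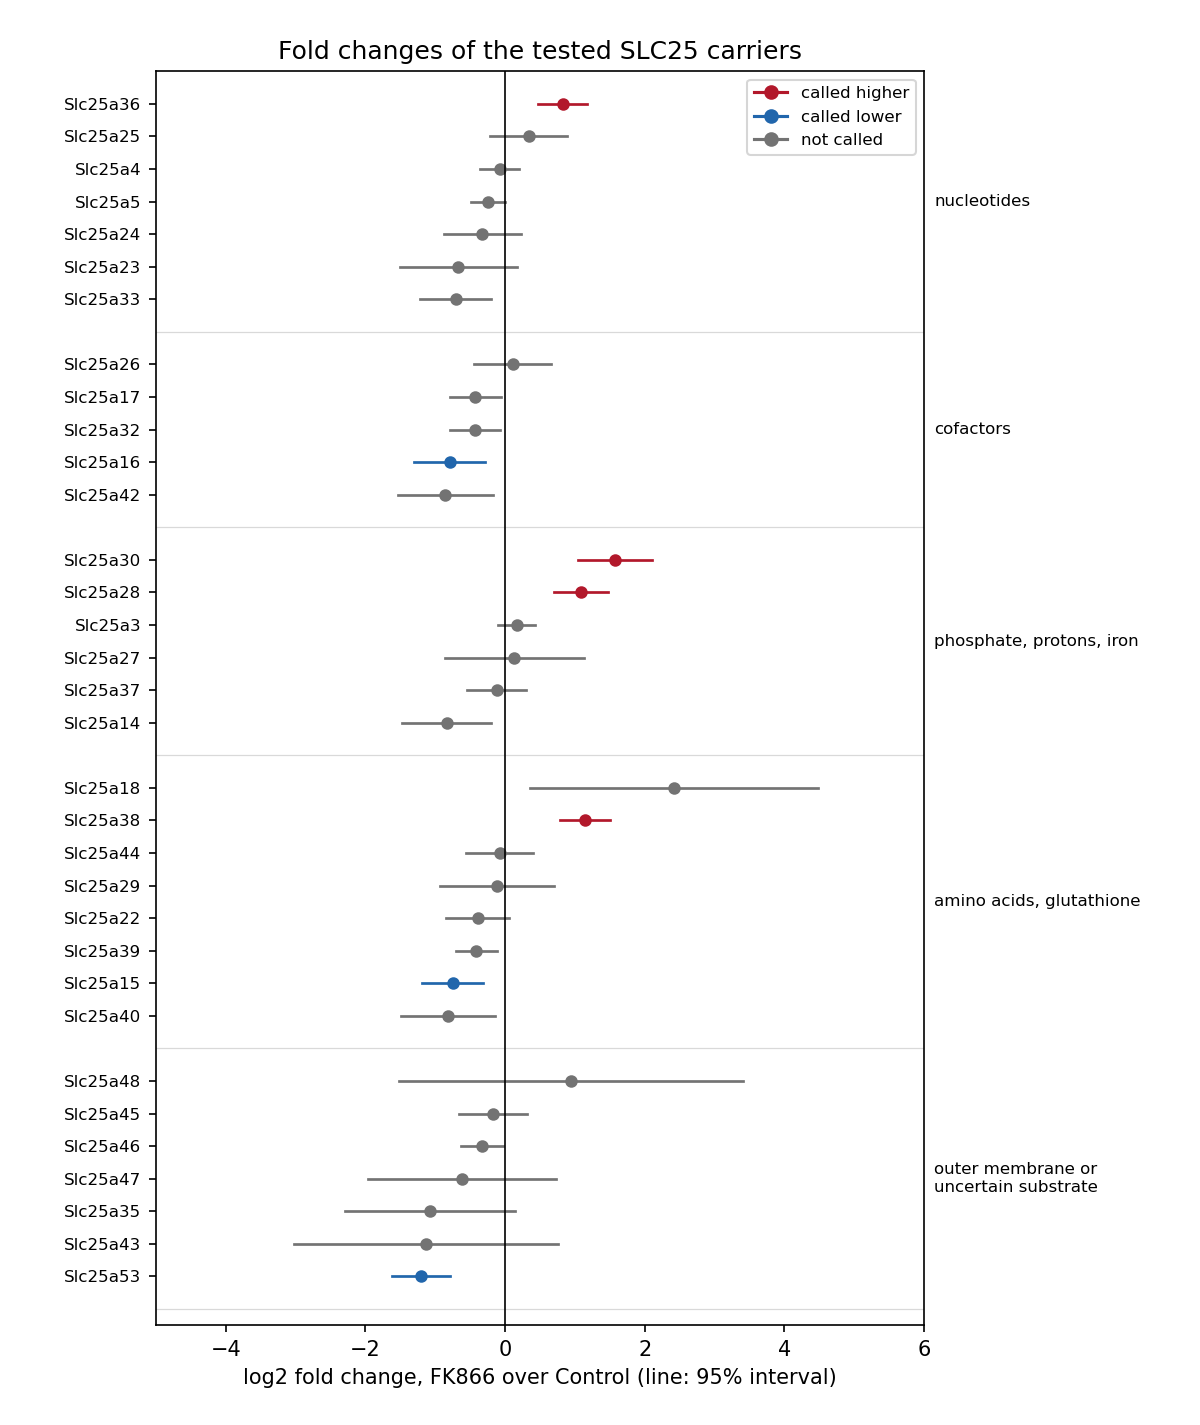
Log2 fold change, FK866 over Control, of 33 tested carriers (points) with 95% intervals (lines), grouped by what they carry; red marks carriers called higher, blue called lower and grey not called. The 4 red points run from 0.82 to 1.57 and the 3 blue points from -1.20 to -0.75, while most grey points lie left of 0.

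Over the 34 tested carriers the median log2 fold change was -0.29, against 0.03 over all 19194 tested genes. Of these carriers, 23 had a negative and 11 a positive value. In 16 both FK866 libraries lay below both Control libraries (47.1%, against 29.3% of all tested genes), in 8 both lay above (23.5%, against 28.4%), and 10 overlapped. All tested genes include weakly counted and non-coding ones, and no such share among well-counted genes was taken. In lists described below, both FK866 libraries lay below in 13 of 22 transporters and 14 of 21 iron and heme genes. They did so in 6 of 15 fusion and fission genes and 5 of 14 biogenesis genes. Fold changes were higher for longer transcripts across 14419 tested protein-coding genes (a description across genes of the same libraries; Spearman rho 0.298), and the carriers had a median transcript of 2798 nt, against 3249 nt. With that trend and the one with GC content removed, the carrier median was -0.21, against 0.04 over all tested genes. Without 1 library the number of carriers called higher stayed at 4, while the number called lower was 5 when FK866 replicate 1 was left out, 2 for FK866 replicate 2, 8 for Control replicate 1 and 6 for Control replicate 2.

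The order of levels was steep, and the called carriers stood in its middle. Per kb of transcript, Slc25a5 averaged 1053 ± 35.8 CPM in FK866 and 1249 ± 15.1 CPM in Control (SD, n = 2 each), and Slc25a3 432.6 ± 7.12 CPM in FK866 and 385.7 ± 16.8 CPM in Control. Below them, Slc25a4 (124.6 ± 5.03 CPM per kb in FK866 and 131.6 ± 6.76 in Control) and Slc25a39 (107.4 ± 4.03 in FK866 and 143.1 ± 10.5 in Control) stood in a different order in the 2 groups. Neither was called, and this order rests on the transcript lengths used, 1925 nt for Slc25a4 and 1685 nt for Slc25a39. In CPM, Slc25a4 was the higher of these in every library. Slc25a38 was the 7th of the 40 over all libraries, with 47.9 ± 0.688 CPM per kb in FK866 and 21.7 ± 3.04 in Control. Together Slc25a3, Slc25a4 and Slc25a5 held 64.1% and 65.1% of carrier counts in FK866 libraries and 64.3% and 66.8% in Control libraries. As a whole the carriers held 0.339% and 0.366% of all counts in FK866 and 0.362% and 0.363% in Control.

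**Figure D4:**
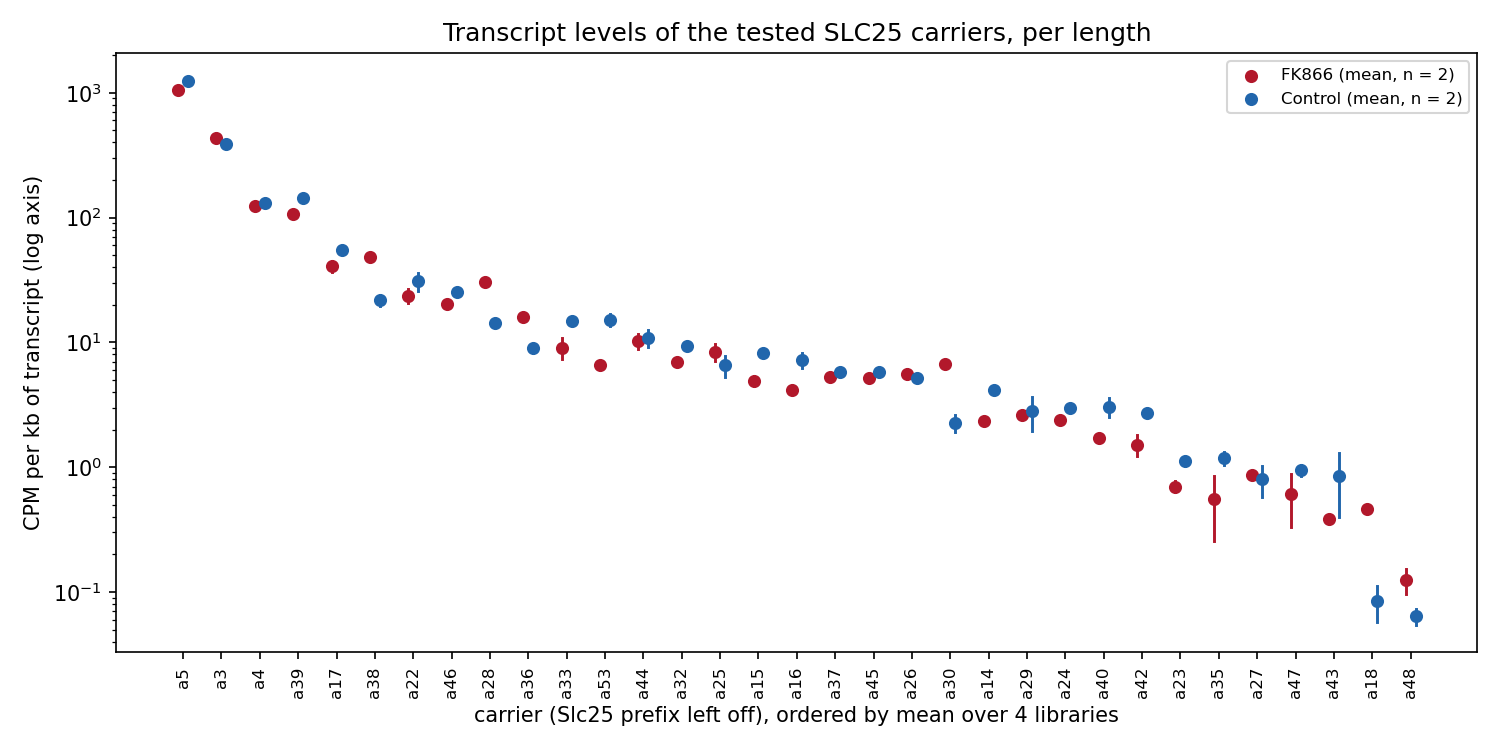
Transcript level of 33 tested carriers in CPM per kb of transcript on a log axis, ordered by the mean over all 4 libraries; points are group means (FK866 red, left; Control blue, right) and vertical lines join the 2 libraries of a group. Slc25a5 stands at 1053 in FK866 and 1249 in Control, and the highest called carrier, Slc25a38, at 47.9 in FK866 and 21.7 in Control.

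Other genes of mitochondrial transport were taken from lists drawn up by function. The share called in a list stands beside 13.2% of all tested genes. Among genes with at least 50 counts in at least 2 libraries that share was 29.2%. No list was tested as a set, so the counts are a description. Of 4 tested carrier relatives with other names 1 was called: Mtch1, an outer-membrane relative that helps insert proteins, fell to 54.1 and 49.8 CPM in FK866, against 115.9 and 102.0 CPM in Control (log2 -1.07, edgeR adjusted p = 0.00387). The abundant uncoupling protein gene Ucp2 had 1184 and 1162 CPM in FK866 and 1214 and 1217 CPM in Control (log2 -0.05). Of 22 transporters and channels outside the family 4 were called (18.2%), each of them lower, and the median log2 fold change was -0.32. They were the mitochondrial serine carrier gene Sfxn1 (143.0 and 133.5 CPM in FK866, against 258.9 and 279.3 CPM in Control), its relative Sfxn2 (log2 -1.10) and the outer-membrane channels Vdac3 (-0.58) and Vdac1 (-0.50). Both Vdac genes lost the call without FK866 replicate 2, without a filter and after removal of the trend with length and GC. Without FK866 replicate 2 this list had 2 genes called lower, and without Control replicate 1 it had 7.

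Imported iron and glycine feed the synthesis of heme and iron-sulfur clusters. Of 21 tested genes of those pathways and of iron handling 5 were called (23.8%), each of them lower. The median log2 fold change was -0.37. The iron-sulfur gene Glrx5 had 94.5 and 92.1 CPM in FK866, against 166.7 and 145.5 CPM in Control (log2 -0.74, edgeR adjusted p = 0.0106). The ferredoxin gene Fdx1 (-0.84) and the heme enzyme gene Uros (-0.75) also fell, though Uros was not called without FK866 replicate 2. Leaving out FK866 replicate 2 gave 3 genes called lower, and leaving out Control replicate 1 gave 8.

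Of 16 tested genes of coenzyme A, thiamine, folate, S-adenosylmethionine and flavin supply, 4 fell and 1 rose (31.2% called, median -0.41). Coasy, which makes coenzyme A in its last steps, had 20.8 and 28.5 CPM in FK866, against 68.6 and 63.5 CPM in Control (log2 -1.42, edgeR adjusted p = 0.00354). Mat2a, the S-adenosylmethionine synthetase gene, had 350.9 and 312.0 CPM in FK866, against 754.9 and 721.2 CPM in Control (log2 -1.15, edgeR adjusted p = 0.00158). Ppcs, of coenzyme A synthesis, fell (-0.77), a call lost without FK866 replicate 2 and after removal of the trend with length and GC, and the pantothenate kinase relative Pank4 rose (0.90), a call lost without FK866 replicate 1. In this list 2 genes were called lower without FK866 replicate 2. Among 17 tested matrix enzymes of amino acid metabolism 2 were called (11.8%), both lower (median -0.29). These were the branched-chain dehydrogenase gene Dbt (-1.31) and Gcsh, of glycine cleavage (-0.81, not called without FK866 replicate 2). With FK866 replicate 2 left out 1 gene was called lower, with Control replicate 2 left out 4.

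Of 11 genes around glutathione 1 was called (9.09%, median -0.09). It was Chac1, called higher, which degrades glutathione, at 5.41 and 2.50 CPM in FK866 and 0.826 and 1.10 CPM in Control, a call lost without FK866 replicate 1 (log2 1.28 in place of 2.03). Of this list 2 genes were called lower under scaling by totals alone or by upper quartile, with library totals before the filter and with the replicate block. DESeq2, the stricter filter and removal of the trend with length and GC each called 1 lower, and RLE scaling and no filter 0. Lower calls also appeared with some single libraries left out. With the stricter filter and with the replicate block, 3 were called higher. In 14 regulators and maintenance genes of mitochondrial DNA and biogenesis 4 were called (28.6%), each of them lower (median -0.17). They were the mitochondrial single-stranded DNA binding protein gene Ssbp1 (-1.03), Tfb1m (-1.05), Tfb2m (-0.80) and the nuclear receptor gene Esrra (-1.04). Tfb1m was not called without FK866 replicate 1 or after removal of the trend with length and GC. Tfb2m was not called without FK866 replicate 2 or Control replicate 2, and Esrra was not called without FK866 replicate 2. Among 15 genes of mitochondrial fusion, fission and cristae edgeR called 0 at an adjusted p under 0.05 (median -0.12). At an unadjusted p under 0.05 0 were higher and 2 lower, DESeq2 called 1 lower, and 3 were called lower without Control replicate 1. After removal of the trend with length and GC 1 was called higher. The most abundant were Immt, at 343.1 and 347.8 CPM in FK866 and 342.8 and 315.5 CPM in Control, and Fis1, at 189.2 and 187.5 CPM in FK866 and 206.2 and 189.2 CPM in Control.

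**Figure D5:**
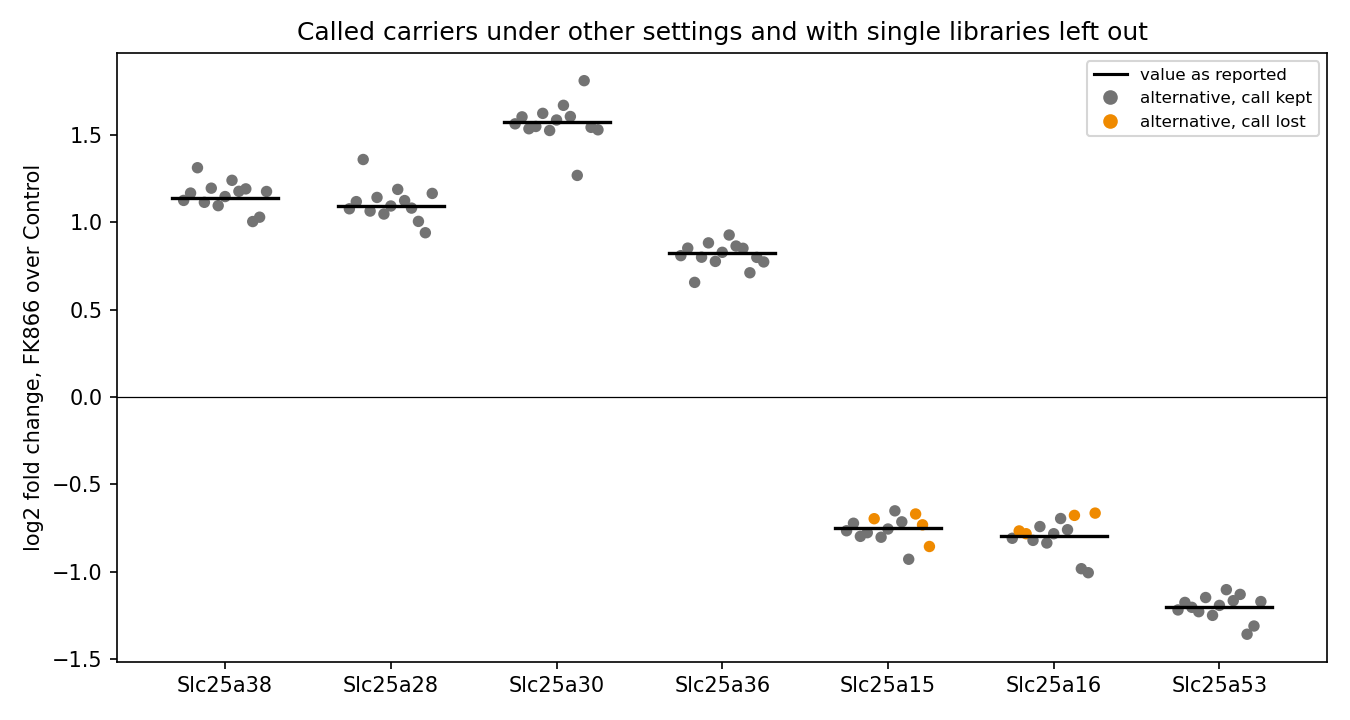
Log2 fold change, FK866 over Control, of the 7 called carriers as reported (black line) and under 13 alternative settings, including each library left out (points); orange points are settings under which the call was lost. The calls of Slc25a38, Slc25a28, Slc25a30, Slc25a36 and Slc25a53 held under all 13, while those of Slc25a15 and Slc25a16 held under 9 each.

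Across these settings the log2 fold change ran from 1.00 to 1.31 for Slc25a38, from 0.94 to 1.36 for Slc25a28, from 1.27 to 1.81 for Slc25a30, from 0.66 to 0.93 for Slc25a36 and from -1.36 to -1.10 for Slc25a53. The highest adjusted p of these 5 under any setting was 0.0348, for Slc25a36. Their direction was the same under TMM, RLE, upper-quartile and library-total scaling.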

How the data were processed

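RNA sequencing was done on 4 libraries, 2 of FK866-treated and 2 of Control ILC2s. The values in the deposited table are counts of reads for each Ensembl gene, in whole numbers that the authors did not normalize, as the values show. Per the labels' protocols, RNA was taken with TRIzol, cDNA made with SMART-Seq HT and libraries with Nextera XT, which do not mark the strand. Per the submitters' processing notes, cutadapt 1.9, HISAT2 2.2.1 and build mm10 were used. The sources used here name no counting program, annotation release or rule for reads that map to several places.

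GENCODE M21 (mm10) gave names, positions, lengths and GC content, and named 55141 of 55487 IDs. Lengths are of the longest coding transcript. Counts were fitted with edgeR 4.0.16 in R 4.3.3 (glmQLFit, glmQLFTest, two-sided), with treatment as the only term, after filterByExpr (minimum count 10, total 15) and with TMM scaling of the totals over tested genes. The SE was taken from the fold change and the F statistic, and the 95% interval uses the t distribution of the fit. CPM uses TMM-scaled totals. Replicates differed by more than sampling noise (chi-square per degree of freedom 15.6 for FK866, 28.8 for Control).

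Members, gene lists, motifs and tests were chosen with earlier results of these data known. Named with values are all called carriers, the others with a mean of at least 10 CPM, and up to 4 called genes of each list, or its 2 most abundant where none was called. Alternatives covered scaling, DESeq2 1.42.0, filters, the length and GC trend, a replicate block and each library left out. Taking library totals before the filter, and the pathway lists under every setting, were added after seeing the data. A library left alone in its group was assumed to vary like the other group. The fit was tested on simulated data. Some genes stay in the counts and medians but are not reported here by name, with values or in the plots.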

Additional observations from a re-analysis of the deposited data

How the results depend on the processing

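With 2 libraries per group, 1 library can decide a call, and counts under about 1 CPM limit what can be seen. Leaving out each library in turn gave 1727 to 3726 called genes over the table (2534 with all), 4 carriers higher in each case, 2 to 8 carriers lower (3 with all), and in the pathway lists together 1 to 5 genes higher (2 with all) and 12 to 33 lower (20 with all). DESeq2 called 5 carriers lower, and the carrier median was -0.21 with the length and GC trend removed. The stricter filter gave 1810 genes higher and 1629 lower over the table (1020 and 1514 as reported), and 8 pathway genes higher. In each of these cases the cause was not tested. The replicate numbers are not stated to pair the libraries (the correlation of same-numbered deviations was 0.234 across genes). Principal component 2 of log CPM (32% of the variance) nonetheless separated the libraries by replicate number. It stood at 57.8 (FK866) and 39.8 (Control) for replicate 1, and at -35.6 (FK866) and -62 (Control) for replicate 2. Whether this reflects a pairing or a batch was not tested. With the replicate numbers as a replicate block, 5256 genes were called, with 14 carriers lower and 4 higher, and 39 pathway genes lower and 8 higher. None of the following fold changes was called in any setting. Slc25a29 was at 0.10 with the trend removed and ran from -0.49 to 0.31 as each library was left out. Slc25a44 was at 0.027 with the stricter filter and ran from -0.28 to 0.059, Slc25a26 from -0.13 to 0.26 and Slc25a27 from -0.32 to 0.59. Slc25a4 was at 0.018 with the stricter filter and 0.054 with the trend removed, Fis1 at 0.028 and 0.21, and Immt ran from -0.016 to 0.081 as each library was left out. No other carrier changed direction under the alternatives run.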

Other observations

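The 7 SLC25 carriers outside the rule used here give a view of the rest of the family. The citrate carrier gene Slc25a1 fell to 71.7 CPM on average in FK866 libraries, against 114.8 CPM in Control libraries (log2 -0.68, edgeR adjusted p = 0.0131). The aspartate-glutamate carrier gene Slc25a13 fell to 8.68 CPM in FK866, against 18.8 CPM in Control (log2 -1.11, edgeR adjusted p = 0.0132). Slc25a10, Slc25a11, Slc25a12, Slc25a20 and Slc25a51 were not called, with log2 fold changes of -0.72, -0.31, -0.58, 0.24 and -0.45.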
